A study of Mus musculus with 4 samples.

Results

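In mouse embryonic stem cells (ESCs) and in embryoid bodies (EBs), 118 autosomal genes had ribosome footprint counts at least 2-fold lower in the Mettl3 knockout (KO) library than in the wild type (WT) library at both stages. They were chosen by those same differences. Of 20716 genes in the deposited table, 9670 had a mean normalised count of at least 25 over the 4 libraries, and 149 of these had log2((KO + 1)/(WT + 1)) at or below -1 in both cultures. Taken off were 10 X-linked genes, 2 genes with no position, 17 whose symbol starts with Zfp, and the germ cell genes Mael and Sycp3, which left 118 genes on 19 chromosomes. A further 138 autosomal genes met both fold limits at a mean under 25 and are not among them.

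All cells were of the C57BL/6 strain. The WT and KO ESCs were kept in serum-free N2B27 medium with LIF and the inhibitors CHIR99021 and PD0325901. The WT and KO EBs were aggregates of such cells in serum-containing MEF medium, held for between 8 and 21 days, and no day is given for either EB library. Each of the 4 groups was 1 library, so no difference between KO and WT has a replicate check. The labels do not say what was altered at the Mettl3 locus or how many clones the KO stands for, so the genotype and any other difference between the lines cannot be told apart.

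METTL3 is the enzyme that methylates adenosines of mRNA to N6-methyladenosine (m6A), a mark that in ESCs shortens the life of many transcripts and is needed for a timely exit from the naive state. Ribosome profiling counts the mRNA pieces shielded by translating ribosomes, so a lower count can come from less mRNA or from fewer ribosomes on it, and in bulk cultures fewer cells of a type and less RNA per cell cannot be told apart. In EBs an outer layer of visceral endoderm forms, which takes up, makes and secretes serum proteins, while naive ESCs transcribe a set of genes otherwise known from germ cells.

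The libraries held between 4075850 and 11455539 gene reads. Mettl3 itself had normalised counts of 563 and 298 in WT and KO ESCs and 429 and 327 in WT and KO EBs, a sum over its whole coding sequence that cannot show a short deletion. The summed count of 9 visceral endoderm markers was 179 and 223 in WT and KO ESCs and 45612 and 1597 in WT and KO EBs, with none at 0 in either EB library. Afp and Cubn of these are members, and the 7 that are not summed to 121 and 213 in WT and KO ESCs and 20975 and 937 in WT and KO EBs. Markers of naive ESCs summed to 14130, 8969, 5382 and 7395 in the same order, with Tbx3 at 0 in all 4. The germ cell markers summed to 449, 159, 1130 and 369, with Ddx4 and Dazl at 0 in all 4. Nanos3 and Dppa3 are members, which leaves Prdm1 alone as a marker outside the rule, at 138, 69.9, 658 and 216. Those of fibroblasts and matrix summed to 400, 1988, 1164 and 7723, with Postn at 0 in all 4. The 4 Y-linked genes summed to 442 in WT ESCs and 1473 in KO ESCs but only 15.6 in WT EBs and 67.2 in KO EBs. The part that these differences between the libraries play in the members' values was not tested.

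The members' normalised counts summed to 38029 and 14634 in WT and KO ESCs and to 88045 and 14667 in WT and KO EBs. Lama1, Cubn and Afp, the 3 highest members in WT EBs, carried most of the gap between the WT sums, since the other 115 summed to 35430 and 14005 in WT and KO ESCs and to 41745 and 12974 in WT and KO EBs. As a share of gene reads the members took 0.57% and 0.239% in WT and KO ESCs and 1.33% and 0.241% in WT and KO EBs. At the same limits, 4.42% of all genes were lower in KO ESCs and 12.2% were lower in KO EBs, shares that stand beside the members only as a description because the rule used both contrasts. At least 2-fold higher in KO were 1024 of the 9670 genes in ESCs and 1469 in EBs. Counts from gene lists below are to be read beside these values for all genes. The median log2 difference of the members was -1.36 in ESCs, with a range from -3.88 to -1.003, and -1.68 in EBs, with a range from -6.68 to -1.002, against -0.00 and -0.07 over all genes. A difference of 4-fold or more was reached by 44 members in EBs, by 25 in ESCs and by 14 in both. In 100 of the 118 members both KO libraries lay below both WT libraries, which the rule favours. The rule also makes a WT library the highest of the 4 in every member, the WT EB library in 71 and the WT ESC library in 47. These counts are descriptions.

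**Figure D1:**
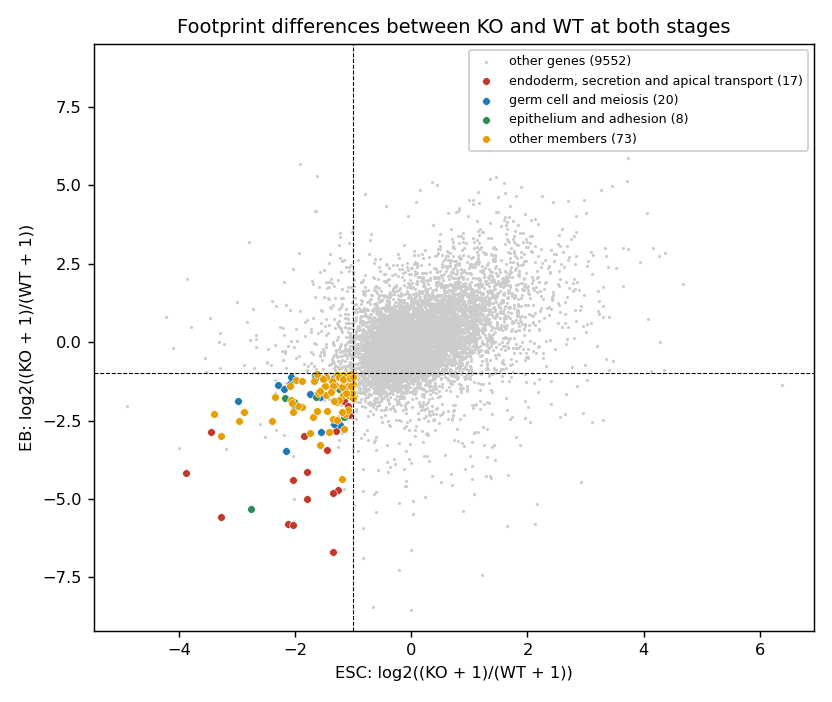
Each point is a gene with a mean of at least 25, with log2((KO + 1)/(WT + 1)) in ESCs across and in EBs upward; dashed lines mark -1, grey points are the other 9552 genes and coloured points the members by role. The members fill the lower left corner by construction, and the endoderm group reaches the lowest EB values, down to -6.68.

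Fold differences below are ratios of normalised counts with a 95% conditional exact binomial (Clopper-Pearson) interval on the recovered reads, which covers counting error only and not the spread between cultures. The intervals left out equal levels at both stages for 113 members. The rule chose members by the same ratios, so this count is a description and gives the differences no support. In ESCs 4 members, Lgals2, Enpep, Slc34a2 and Hsd17b2, had an interval that included equal levels, and in EBs 1 unnamed gene model did. For Lgals2 and Enpep, both ESC libraries held at most the 3 reads taken as the floor, so no ESC fold is given. Lgals2 had 2 reads in WT ESCs and 0 in KO ESCs, as did Enpep, so their ESC difference is not larger than counting error. By role, as assigned from textbook knowledge after their values were seen, 20 members are germ cell and meiosis genes, 17 are genes of endoderm, secretion and apical transport, 14 are signalling and transcription regulators, 8 are epithelial and adhesion genes, 28 fall into 5 smaller groups, 22 fit none of them and 9 are unnamed gene models.

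The 17 endoderm, secretion and apical transport genes had the largest median EB difference of the role groups. Positions beside gene names are spans of the whole gene on GRCm38.p6. Their median log2 difference was -1.79 in ESCs and -4.18 in EBs, and 16 of 17 differed at least 4-fold in EBs. Lama1 (chr17:67697127-67822645), the alpha 1 chain of basement membrane laminin, had normalised counts of 2541 in the WT and 619 in the KO ESC library and 21662 and 1033 in the WT and KO EB libraries. Its fold difference was 4.1-fold (3.84 to 4.39) in ESCs and 21-fold (19.4 to 22.7) in EBs. WT EBs stood far above the other 3 libraries. The other chains of its trimer, which are not members, had log2 differences of 0.18 and -0.54 in ESCs. Lamb1 had 1660 and 1886 in WT and KO ESCs but 16809 and 3970 in WT and KO EBs. Lamc1 had 12688 and 8710 in ESCs and 16287 and 11608 in EBs.

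Cubn (chr2:13276338-13491876) encodes cubilin, the endocytic receptor of the visceral endoderm's apical surface. Its normalised counts were 39.7 and 3.2 in WT and KO ESCs and 16000 and 331 in WT and KO EBs, so that it was 12.4-fold (5.32 to 35.4) lower in KO ESCs and 48.3-fold (42.3 to 55.4) lower in KO EBs. Amn, whose product anchors cubilin, and Lrp2, the partner receptor megalin, are not members. Amn stood at 12.5 and 33.6 in WT and KO ESCs and 1750 and 89.6 in WT and KO EBs. Lrp2 stood at 336 and 629 in ESCs and 13679 and 1363 in EBs. All 3 were lower in KO EBs, and Cubn alone of the 3 was lower in KO ESCs.

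Secreted plasma proteins formed a second set. Afp (chr5:90490714-90508907), alpha-fetoprotein, had 17.9 in the WT and 6.93 in the KO ESC library and 8637 and 328 in the WT and KO EB libraries, 2.58-fold (1.25 to 5.55) lower in KO ESCs and 26.3-fold (23 to 30.2) lower in KO EBs. Fgg, the gamma chain of fibrinogen, had 26.5 and 6.93 in WT and KO ESCs and 254 and 13.4 in WT and KO EBs. The folds of Fgg were 3.82-fold (1.96 to 7.88) and 18.9-fold (9.72 to 42.1). Apoa2, a high-density lipoprotein component, had 149 in the WT and 69.9 in the KO ESC library and 457 and 89.6 in the WT and KO EB libraries, a smaller difference of 2.13-fold (1.69 to 2.68) in ESCs and 5.1-fold (3.85 to 6.85) in EBs. Of the coagulation regulators, Tfpi had 189 and 51.7 in WT and KO ESCs and 733 and 91.1 in WT and KO EBs, and F5, factor V, was 2.32-fold and 3.83-fold lower. Mup6, a major urinary protein, and Serpina3m, a serine protease inhibitor, belong to clustered gene families. Mup6 had 37.4 in the WT and 1.6 in the KO ESC library and 153 and 7.46 in the WT and KO EB libraries, with KO counts resting on 3 and 5 reads. Serpina3m had 137 and 11.7 in WT and KO ESCs and 49.9 and 5.97 in WT and KO EBs, with more in WT ESCs than in WT EBs. Of their 28-base coding windows, 28.7% in Mup6 and 44.1% in Serpina3m recur elsewhere in the genome, so their counts are uncertain.

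Membrane enzymes and transporters made up most of the others. Abcc2, an exporter of conjugated organic anions, had 26.5 in the WT and 5.33 in the KO ESC library and 552 and 8.96 in the WT and KO EB libraries, 4.96-fold (2.4 to 11.3) lower in ESCs and 61.6-fold (28 to 169) lower in EBs. Slc13a4, a sodium-coupled sulfate transporter, had 11.7 and 2.67 in WT and KO ESCs and 173 and 4.48 in WT and KO EBs. Slc34a2, a sodium-coupled phosphate transporter, had 4.67 in the WT and 1.07 in the KO ESC library and 351 and 31.3 in the WT and KO EB libraries. These 3 were low in ESCs of both genotypes and highest in WT EBs, and in KO EBs Slc34a2 also lay above both its ESC values, 29.4-fold (7.18 to 258) above KO ESCs. Enpep, a membrane-bound glutamyl aminopeptidase, had 1.56 and 0 in WT and KO ESCs and 408 and 2.99 in WT and KO EBs. The EB fold of Enpep was 137-fold (37.5 to 1135), a wide interval because KO EBs held 2 reads. Lgals2, a small galactose-binding lectin, had 1.56 in the WT and 0 in the KO ESC library and 570.4 and 19.4 in the WT and KO EB libraries. Hsd17b2, which oxidises oestradiol and testosterone, had 3.11 and 0 in WT and KO ESCs and 140.3 and 1.49 in WT and KO EBs. With 0 reads in KO ESCs, Hsd17b2 was at least 1.95-fold lower there against the floor of 3 reads per library, and it was 94-fold (16.4 to 3752) lower in KO EBs. The peptidase Cpm had 509.6 in WT EBs and 70.2 in KO EBs. Mep1b, the beta subunit of the brush border protease meprin, was 2.14-fold and 4.14-fold lower, and like Serpina3m it was higher in ESCs than in EBs in both genotypes.

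Of the 53 genes on a list of primitive and visceral endoderm genes, 43 passed the filter. In KO EBs 36 of the 43 were lower and 1, Cpn1, was higher, with a median log2 difference of -3.28, but in KO ESCs 6 were lower and 8 higher, with a median of -0.02. The lower shares were 83.7% in EBs and 14% in ESCs, against 12.2% and 4.42% of all genes. The 6 that were lower in ESCs are Cubn, Afp, Apoa2, Fgg, Lama1 and Slc13a4, all of them members. Of the regulators on the list, Gata4, Sox17 and Foxa2 had log2 differences of -0.02, 0.26 and -0.09 in KO ESCs. Gata4 and Sox17 are among the 7 endoderm markers outside the rule, which together summed to only 121 in WT and 213 in KO ESCs. Their ESC differences may therefore rest on few reads. In KO EBs Gata4, Sox17 and Foxa2 stood at -3.25, -2.92 and -3.46.

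Promoters of the endoderm group were poor in CpG. RefSeq windows on GRCm38.p6, running from 250 bases before to 50 bases after the start, were matched for 93 of the 118 members and for 7708 tested genes. The ratio of observed to expected CpG was under 0.4, a limit chosen here, in 11 of the 13 matched endoderm genes and in 29 of the 93 matched members, which is 31.2%, against 11% of all genes. Unnamed gene models shared this trait, with 6 of 9 under 0.4. The motif TATAAA, searched on both strands, was found in 5 of the 13 endoderm genes, in 11 of the 93 (11.8%) and in 7.04% of all promoters. The windows of 3 genes are printed to show what such promoters look like, as the 250 bases before the annotated start, 5′ to 3′ on the gene's strand. Capitals mark TATAAA or its reverse complement in Afp (chr5:90490464-90490713, plus strand) and Enpep (chr3:129332750-129332999, minus strand), and every CG in Cubn (chr2:13491877-13492126, minus strand). They hold 1, 6 and 2 CpG in that order.
Afp: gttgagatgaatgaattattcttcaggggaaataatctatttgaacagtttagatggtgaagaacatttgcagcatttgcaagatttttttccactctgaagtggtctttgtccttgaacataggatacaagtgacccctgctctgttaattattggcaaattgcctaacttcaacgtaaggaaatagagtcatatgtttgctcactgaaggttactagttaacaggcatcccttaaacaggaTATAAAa
Enpep: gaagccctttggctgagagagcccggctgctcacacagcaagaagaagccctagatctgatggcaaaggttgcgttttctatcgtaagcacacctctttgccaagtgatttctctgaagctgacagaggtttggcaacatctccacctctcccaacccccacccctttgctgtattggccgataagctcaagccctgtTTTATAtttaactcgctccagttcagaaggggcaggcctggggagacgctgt
Cubn: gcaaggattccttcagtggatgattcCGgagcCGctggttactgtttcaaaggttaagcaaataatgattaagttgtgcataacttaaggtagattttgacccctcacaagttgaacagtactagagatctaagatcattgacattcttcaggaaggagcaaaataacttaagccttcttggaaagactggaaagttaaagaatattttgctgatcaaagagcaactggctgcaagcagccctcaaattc

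**Figure D2:**
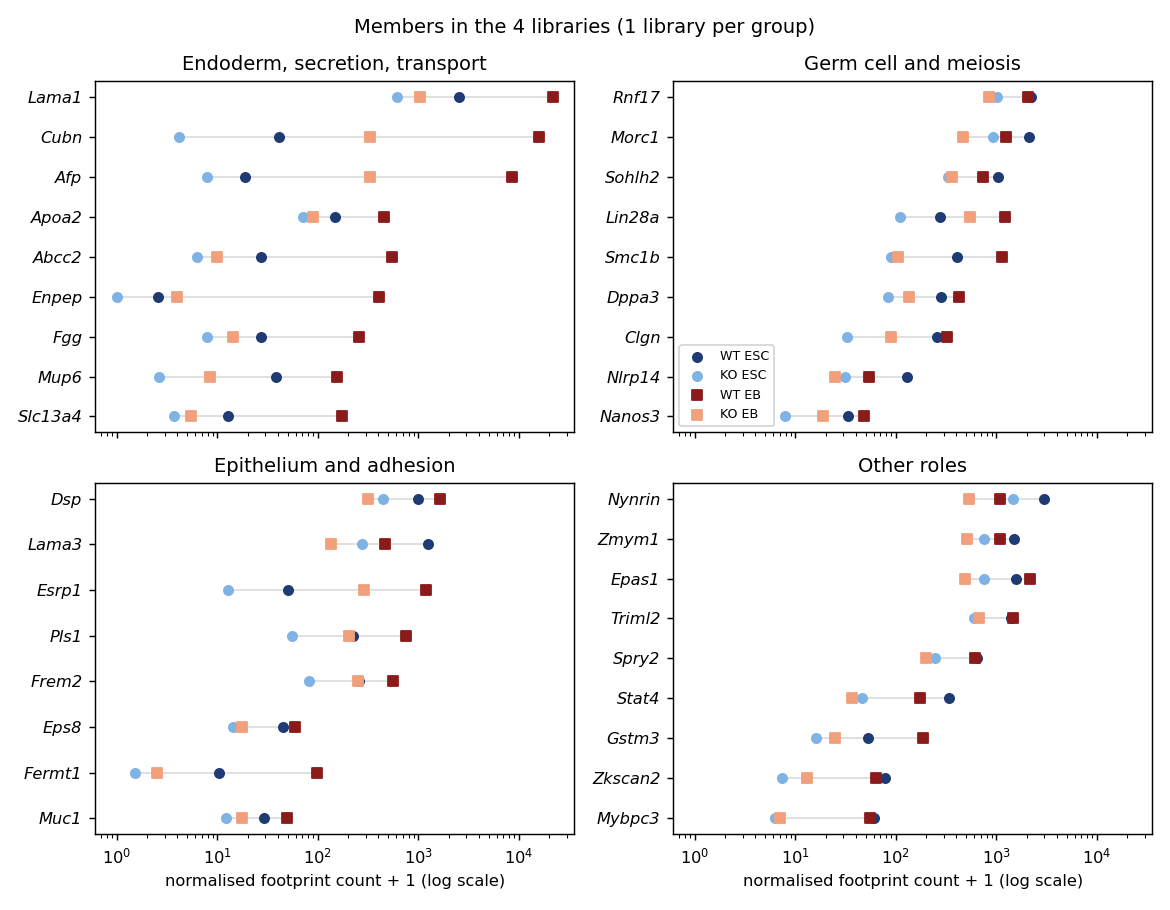
Normalised footprint count plus 1 on a log axis in each of the 4 libraries for 35 members named in the text, in panels by role; circles are ESCs, squares EBs, dark WT and light KO. The endoderm genes drawn spread widely with the WT EB square far to the right, from 153 for Mup6 to 21662 for Lama1. Serpina3m and Mep1b of that role, which were highest in WT ESCs, are not drawn. The germ cell genes drawn form tighter groups.

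The 20 germ cell and meiosis genes had similar median differences at the 2 stages. Their median log2 difference was -1.54 in ESCs and -1.48 in EBs. The EB difference was the larger one in 11 of 20, against 78 of all 118 members. Of the 20, 10 still met both limits once differences were centred on genes of like coding GC. The most abundant was Rnf17 (chr14:56402650-56525032), a Tudor domain protein of the germline small RNA pathway, with 2216 in the WT and 1006 in the KO ESC library and 2045 and 852 in the WT and KO EB libraries. It was 2.2-fold (2.08 to 2.34) lower in KO ESCs and 2.4-fold (2.17 to 2.65) lower in KO EBs. Morc1, which takes part in transposon silencing in male germ cells, had 2120 and 923 in WT and KO ESCs and 1247 and 469 in WT and KO EBs. Sohlh2, a transcription factor of early germ cells, had 1035 in the WT and 326 in the KO ESC library and 740.3 and 357 in the WT and KO EB libraries. In these 3 abundant genes all differences were between 2.08-fold and 3.17-fold, with narrow counting intervals.

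Smc1b (chr15:85064689-85131957), a meiosis-specific cohesin subunit, showed the largest EB difference of the group. Its normalised counts were 400.1 and 88.6 in WT and KO ESCs and 1146 and 103 in WT and KO EBs, and it was 4.52-fold (3.79 to 5.41) lower in KO ESCs and 11.1-fold (8.68 to 14.5) lower in KO EBs. Dppa3, a maternal and primordial germ cell factor that guards DNA methylation, had 279 in the WT and 82.7 in the KO ESC library and 425 and 134 in the WT and KO EB libraries, with folds of 3.37 in ESCs and 3.17 in EBs, although 65.7% of its 28-base windows recur elsewhere. Nanos3, needed for survival of primordial germ cells, had 32.7 and 6.93 in WT and KO ESCs and 46.8 and 17.9 in WT and KO EBs, with 4.71-fold (2.48 to 9.57) in ESCs and 2.61-fold (1.3 to 5.6) in EBs. Clgn, a chaperone of the testis endoplasmic reticulum, had 255 in the WT and 31.5 in the KO ESC library and 323 and 88.1 in the WT and KO EB libraries. It was 8.11-fold (6.13 to 10.9) lower in ESCs, the largest ESC fold of the group, and 3.66-fold (2.73 to 4.98) lower in EBs.

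The 2 oocyte NLR genes were highest in WT ESCs. Nlrp14 had 129 and 29.9 in WT and KO ESCs and 53 and 23.9 in WT and KO EBs, and Nlrp4c had 389 in the WT and 78.9 in the KO ESC library and 56.1 and 20.9 in the WT and KO EB libraries. The ESC folds were 4.33-fold (3.18 to 5.97) and 4.93-fold (4.1 to 5.96), and 32.2% of the windows of Nlrp4c recur elsewhere. Cox7b2, a form of a respiratory chain subunit known from testis, had 196 and 88 in WT and KO ESCs and 28.1 and 8.96 in WT and KO EBs. Ddx25, a testis RNA helicase, ran the other way between stages in WT only. It had 71.6 in the WT and 29.9 in the KO ESC library and 164 and 25.4 in the WT and KO EB libraries. Lin28a, which binds RNA and blocks maturation of let-7 microRNAs, had 274 and 109 in WT and KO ESCs and 1216 and 545 in WT and KO EBs, higher in EBs in both genotypes. The remaining 8, among them Dmrt1, a sex-determining transcription factor, and Dnah8, a heavy chain of the sperm axoneme, had ESC folds between 2.08 and 4.59 and EB folds between 2.22 and 8.35.

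On the list of early germ cell and preimplantation factors, 23 of 42 passed the filter. In KO ESCs 9 of the 23, or 39.1% beside 4.42% of all genes, were lower and 1, Khdc3, was higher, with a median log2 difference of -0.88. In KO EBs 5 were lower, the 4 members and Prdm1, and 5 were higher, among them the preimplantation genes Zscan4d and Pramel7 at 2.33 and 2.29 on the log2 scale, and the median was 0.30. On the list of meiosis and piRNA genes 41 of 63 passed, with 9 lower and 5 higher in KO ESCs and 8 lower and 7 higher in KO EBs, and medians of -0.13 and -0.06. Its lower shares were 22% in ESCs and 19.5% in EBs, and that of the first list was 21.7% in EBs. Of all genes, 4.42% were lower in ESCs and 12.2% in EBs. The members on the first list are Dppa3, Nanos3, Nlrp14 and Sohlh2, and those on the second are Smc1b and Rnf17, with Mael and Sycp3 left out by the rule. Of 26 naive pluripotency genes that passed, 6 were lower and none higher in KO ESCs, and 2 were lower, Morc1 and Dppa3, and 5 higher in KO EBs. The 5 are Klf2, Klf4, Fgf4, Pou5f1 and Jam2, of which Klf4 had the largest log2 difference, 2.16. The lower shares of this list were 23.1% in ESCs and 7.69% in EBs, against 4.42% and 12.2% of all genes. Of all 9670 genes, 1024 were higher in KO ESCs and 1469 in KO EBs.

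Their promoters were mixed. Of 13 germ cell members with a matched promoter, 3 had a CpG ratio under 0.4, and the median ratio was 0.602. The range is shown by the 250 bases before the starts of Nanos3 (chr8:84176553-84176802), Smc1b (chr15:85131958-85132207) and Ddx25 (chr9:35558471-35558720), all on the minus strand of GRCm38.p6. Capitals mark each CG, of which there are 3, 25 and 34 in that order. The E-box CACGTG was present in 11 of the 93 matched member promoters, 11.8%, against 10.8% of all promoters, a share close to that of all genes.
Nanos3: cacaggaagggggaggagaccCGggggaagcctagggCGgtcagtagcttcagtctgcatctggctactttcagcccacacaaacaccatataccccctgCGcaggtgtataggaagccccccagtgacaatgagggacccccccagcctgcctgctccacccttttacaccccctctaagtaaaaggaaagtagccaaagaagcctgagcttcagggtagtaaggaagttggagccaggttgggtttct
Smc1b: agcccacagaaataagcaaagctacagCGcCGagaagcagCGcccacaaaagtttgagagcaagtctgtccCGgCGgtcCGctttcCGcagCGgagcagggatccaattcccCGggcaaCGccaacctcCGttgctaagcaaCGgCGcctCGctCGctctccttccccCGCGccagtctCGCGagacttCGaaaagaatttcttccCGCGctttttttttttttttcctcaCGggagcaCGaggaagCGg
Ddx25: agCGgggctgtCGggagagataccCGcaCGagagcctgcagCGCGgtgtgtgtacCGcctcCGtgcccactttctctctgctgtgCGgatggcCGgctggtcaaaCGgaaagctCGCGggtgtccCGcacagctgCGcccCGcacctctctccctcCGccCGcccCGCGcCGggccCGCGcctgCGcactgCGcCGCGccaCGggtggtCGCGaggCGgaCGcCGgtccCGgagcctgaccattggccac

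**Figure D3:**
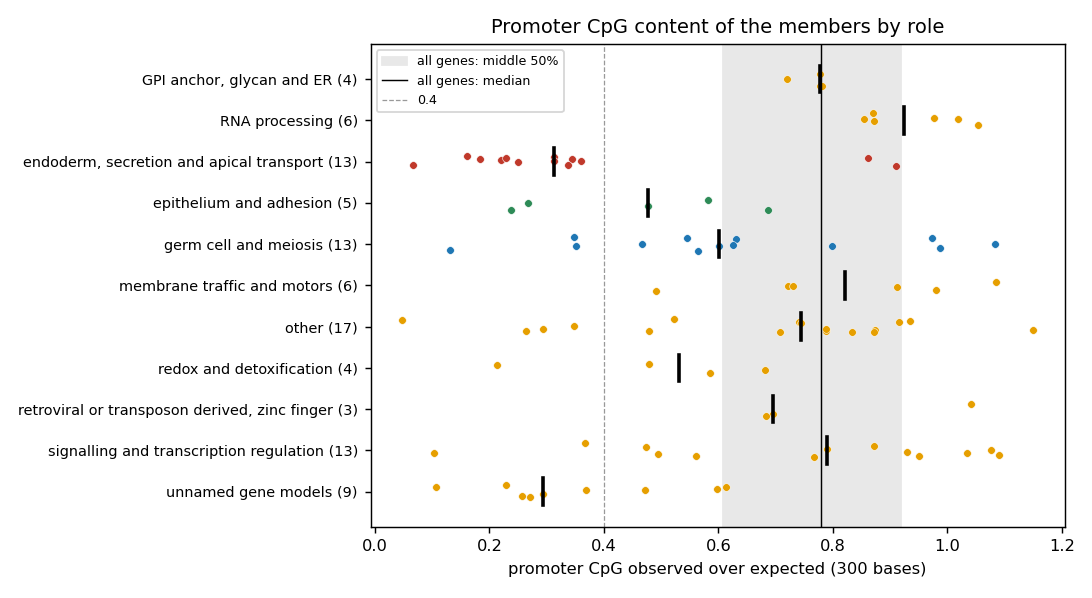
Ratio of observed to expected CpG in the 300 promoter bases for the 93 members with a matched promoter, by role, with the number of promoters in brackets; short black bars are role medians, the grey band is the middle 50% of all 7708 promoters and the long line their median of 0.78. The endoderm promoters lie mostly left of 0.4, with a median of 0.312, as do those of unnamed gene models, with a median of 0.293. Those of RNA processing genes have a median of 0.925.

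The 8 epithelial and adhesion genes had median log2 differences of -1.83 in ESCs and -1.85 in EBs. Dsp (chr13:38151294-38198577), desmoplakin, which ties desmosomes to keratin, had 999 in the WT and 448 in the KO ESC library and 1649 and 312 in the WT and KO EB libraries, 2.23-fold (2.04 to 2.43) lower in ESCs and 5.29-fold (4.55 to 6.16) lower in EBs. Lama3, the alpha 3 laminin chain of epithelial basement membranes, had 1234 and 275 in WT and KO ESCs and 463 and 133 in WT and KO EBs. It was higher in ESCs than in EBs in both genotypes, the reverse of Lama1. Esrp1 (chr4:11331933-11386783), a splicing factor of epithelial cells, had 49.8 in the WT and 11.7 in the KO ESC library and 1197 and 287 in the WT and KO EB libraries, 4.24-fold (2.58 to 7.24) and 4.18-fold (3.56 to 4.92) lower. Both EB libraries exceeded both ESC libraries, and the KO difference was of the same size at the 2 stages. Its paralogue Esrp2 is no member, with 106 and 161 in WT and KO ESCs and 235 and 187 in WT and KO EBs.

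Of the other epithelial members, Pls1, Eps8, Frem2, Fermt1 and Muc1 each had their highest value in WT EBs. Pls1, which bundles actin in microvilli, had ESC and EB folds of 4.1 and 3.75, and Eps8, which caps actin filaments there, had 3.27 and 3.51. Frem2, a basement membrane protein, was 3.19-fold and 2.22-fold lower. Fermt1, kindlin-1, an integrin activator of epithelia, had 9.34 and 0.533 in WT and KO ESCs and 98.2 and 1.49 in WT and KO EBs, with 1 read in each KO library and therefore very wide intervals, from 2.59 to 748 in ESCs and from 11.4 to 2639 in EBs. Muc1, an apical mucin, had 28 in the WT and 11.2 in the KO ESC library and 48.3 and 16.4 in the WT and KO EB libraries. On the list of simple epithelium and junction genes, 34 passed, with 5 lower (Epcam, Esrp1, Krt42, Dsp and Crb3) and 9 higher in KO ESCs and 10 lower and 3 higher (Cldn3, Krt17 and Krt42) in KO EBs. The lower shares were 14.7% in ESCs and 29.4% in EBs, against 4.42% and 12.2% of all genes. Only Esrp1 and Dsp of that list are members, and Epcam, lower in ESCs at 1526 against 620.4, had 3435 and 2645 in WT and KO EBs.

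Among genes derived from retroviruses or transposons and other DNA-binding zinc finger genes, 6 were members. Nynrin (chr14:55854115-55874736), which carries an integrase-like domain of retroviral origin, was the most abundant with 3003 and 1457 in WT and KO ESCs and 1085 and 534 in WT and KO EBs. It was 2.06-fold (1.96 to 2.17) lower in KO ESCs and 2.03-fold (1.78 to 2.31) lower in KO EBs, and it was lower in EBs than in ESCs in both genotypes. Zmym1, a zinc finger protein with a transposase-like domain, had 1492 in the WT and 744 in the KO ESC library and 1089 and 505 in the WT and KO EB libraries. Tigd2, derived from a pogo-like transposase, had 148 and 54.9 in WT and KO ESCs and 82.6 and 10.4 in WT and KO EBs. Zkscan2, a zinc finger protein with KRAB and SCAN domains, had 77.1 in the WT and 6.4 in the KO ESC library and 62.3 and 11.9 in the WT and KO EB libraries, 12-fold (6.59 to 24.1) lower in ESCs and 5.22-fold (2.41 to 12.9) lower in EBs. Jrk, of the same transposase family as Tigd2, and Fv1, a retrovirus restriction factor of gag origin, were between 3.51-fold and 6.03-fold lower at both stages. The 17 genes named Zfp that met the limits are outside this count.

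The 14 signalling and transcription regulators had median differences of -1.49 in ESCs and -1.40 in EBs. Epas1 (chr17:86753864-86833410), the hypoxia-inducible factor HIF-2 alpha, had 1581 and 747 in WT and KO ESCs and 2143 and 482 in WT and KO EBs, 2.12-fold (1.98 to 2.27) lower in ESCs and 4.44-fold (3.93 to 5.03) lower in EBs. Spry2, a feedback inhibitor of FGF and ERK signalling, had 639.8 in the WT and 246 in the KO ESC library and 611 and 200 in the WT and KO EB libraries. Of 20 FGF and ERK genes that passed the filter, 2 were lower, Spry2 and Egr1, and 4 higher in KO ESCs, and 4 were lower, Spry1, Spry2, Dusp6 and Klb, and 6 higher in KO EBs. The lower shares were 10% in ESCs and 20% in EBs, against 4.42% and 12.2% of all genes. Stat4, a cytokine-activated transcription factor, had 335 and 44.8 in WT and KO ESCs and 173 and 35.8 in WT and KO EBs, 7.47-fold (5.9 to 9.55) lower in ESCs and 4.83-fold (3.08 to 7.85) lower in EBs. Apc2, a relative of the Wnt regulator Apc, had 18.7 in the WT and 8.54 in the KO ESC library and 60.8 and 29.9 in the WT and KO EB libraries, and Ptprz1, a receptor phosphatase, had 60.7 and 19.7 in WT and KO ESCs and 23.4 and 1.49 in WT and KO EBs.

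Trp53, the p53 tumour suppressor, was a member outside the rule for naming genes and was picked after its values were seen. It had 221 in the WT and 107 in the KO ESC library and 204 and 77.6 in the WT and KO EB libraries, 2.07-fold (1.72 to 2.5) lower in ESCs and 2.63-fold (1.89 to 3.7) lower in EBs, and 38.5% of its 28-base windows recur elsewhere. Of 18 p53 target genes that passed the filter, none was lower in KO at either stage, Gdf15 was higher in ESCs at 1.13 on the log2 scale, and Gdf15 and Phlda3 were higher in EBs at 3.24 and 1.22. Among all 9670 genes, 4.42% were lower and 1024 higher in KO ESCs, and 12.2% were lower and 1469 higher in KO EBs. Mdm2, a target and inhibitor of p53, had 2007 and 1692 in WT and KO ESCs and 2107 and 2564 in WT and KO EBs.

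The 6 genes for RNA processing and the transcription machinery had median log2 differences of -1.10 in ESCs and -1.37 in EBs. Among them Pcf11, a subunit of the cleavage and polyadenylation complex, had 1132 and 478 in WT and KO ESCs and 957 and 264 in WT and KO EBs. Mars2, the mitochondrial methionyl-tRNA synthetase, had 304 in the WT and 72 in the KO ESC library and 237 and 65.7 in the WT and KO EB libraries, 4.23-fold (3.47 to 5.18) lower in ESCs and 3.61-fold (2.56 to 5.17) lower in EBs. Rpusd4, a mitochondrial pseudouridine synthase, had 346 and 172 in WT and KO ESCs and 411 and 161 in WT and KO EBs, and Nktr, a cyclophilin with arginine and serine repeats, had 489.6 in the WT and 244 in the KO ESC library and 577 and 267 in the WT and KO EB libraries. Apart from Mars2, the ESC folds of this group lay between 2.01 and 2.37.

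Of 5 genes for GPI anchors, glycans and the endoplasmic reticulum, Pgap1, which remodels GPI anchors, had 439.8 and 191 in WT and KO ESCs and 1021 and 219 in WT and KO EBs. Pigf, which takes part in adding the anchor's ethanolamine phosphate, had 547 in the WT and 215 in the KO ESC library and 734 and 275 in the WT and KO EB libraries. Of 5 redox and detoxification genes, Gstk1, a glutathione transferase of mitochondria and peroxisomes, had 79.4 and 19.7 in WT and KO ESCs and 210.4 and 50.8 in WT and KO EBs. Gstm3, a glutathione transferase of the mu class, had 52.1 in the WT and 14.9 in the KO ESC library and 185 and 23.9 in the WT and KO EB libraries, with 71.9% of its windows copied elsewhere. All 5 redox genes had the larger difference in EBs, as did 78 of all 118 members, or 66.1%. On the redox list 37 genes passed, with 5 lower (Gstm3, Gstm7, Gstk1, Gpx4 and Aldh1a2) and 6 higher in KO ESCs and 2 lower and 5 higher in KO EBs, the 2 being Gstm3 and Gstk1. The lower shares were 13.5% in ESCs and 5.41% in EBs, against 4.42% and 12.2% of all genes. The 6 membrane traffic and motor genes, such as Vps53 of the GARP complex and the neuronal dynamin Dnm1, had ESC folds between 2.15 and 2.44.

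Of the 22 members with other roles, Triml2, a tripartite motif-like gene, was the most abundant with 1398 and 593 in WT and KO ESCs and 1451 and 676 in WT and KO EBs. Wdr70, a WD repeat protein, had 742 in the WT and 358 in the KO ESC library and 617 and 276 in the WT and KO EB libraries. Herc3, a ubiquitin ligase on the list of imprinted genes, had 339 and 166 in WT and KO ESCs and 429 and 188 in WT and KO EBs. Of the 29 imprinted genes that passed, 4 were lower, Mkrn3, Plagl1, Slc38a4 and Herc3, and 5 higher in KO ESCs, and 7 were lower and 6 higher in KO EBs. The lower shares were 13.8% in ESCs and 24.1% in EBs, against 4.42% and 12.2% of all genes. Mybpc3, the cardiac myosin-binding protein C, was low in all libraries but had one of the larger ESC folds, with 59.9 in the WT and 5.33 in the KO ESC library and 54.5 and 5.97 in the WT and KO EB libraries, 11.2-fold (5.79 to 24.4) and 9.14-fold (3.27 to 35.4) lower. Ccdc172, a coiled-coil protein, had 89.5 and 10.7 in WT and KO ESCs and 21.8 and 2.99 in WT and KO EBs. Ttc39c, next to Lama3 on its chromosome, had 267 in the WT and 89.6 in the KO ESC library and 184 and 61.2 in the WT and KO EB libraries, and Inip, a subunit of the SOSS DNA repair complex, had 262 and 129.6 in WT and KO ESCs and 284 and 82.1 in WT and KO EBs. The median log2 differences of the 22 were -1.34 in ESCs and -1.61 in EBs. The EB difference was the larger one in 14 of 22, or 63.6%, close to the 66.1% of all members.

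The change from ESC to EB was compared next. The Y-linked genes summed to 442 and 1473 in WT and KO ESCs but 15.6 and 67.2 in WT and KO EBs. Stage and any other difference between the cells of the ESC and EB libraries therefore cannot be told apart. WT EBs were at least 2-fold higher than WT ESCs for 34 members, or 28.8%, against 11.0% of all genes, and at least 2-fold lower for 12, or 10.2%, against 8.25%. KO EBs were higher than KO ESCs for 24 members, or 20.3%, against 9.31%, and lower for 15, or 12.7%, against 6.65%. These libraries are the ones the rule used, and a gene high in WT EBs meets the rule more easily, so the shares are descriptions. Of the 34 higher in WT EBs, 15 are endoderm, secretion and transport genes, and 15 of the 34 were not higher in KO EBs. In the endoderm group 8 were higher in KO EBs too, but some of the 8 rest on very few reads. Enpep had 2 reads in KO EBs and Hsd17b2 had 1, both with 0 in KO ESCs, which is within the floor of 3 reads. Mup6 had 5 reads in KO EBs and 3 in KO ESCs. The KO difference was larger in EBs by 1 log2 unit or more for 29 members, or 24.6%, against 12.5% of all genes, and smaller by that much for 2, Clgn and Zkscan2, or 1.69%, against 11.4%; the rule's limits bear on these shares as well.

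The stage contrast over both genotypes is not the contrast the rule used, and it alone was tested, with limma on log2(value + 1) and genotype as a covariate. Its residual spread is the gap between the 2 KO differences, on which the rule sets limits. The members' p-values are therefore not free of the rule. The abundance filter also pooled both stages, so a gene scarce in ESCs could pass on its EB counts, and the reverse. Cubn, at 39.7 and 3.2 in WT and KO ESCs, and Afp, at 17.9 and 6.93, would average under 25 from ESC counts alone. Both became members through their EB counts, so the test results of Cubn and Afp are descriptions. Limma with Benjamini-Hochberg adjustment over 9597 genes called 13 genes higher in EBs, 0.135%, and 4 lower, 0.0417%, of which 3 and 0 were members. Cubn was higher in EBs by 7.46 on the log2 scale (SE 0.559, adjusted p = 0.0189), Afp by 7.11 (SE 0.744, adjusted p = 0.0393) and Esrp1 by 4.53 (SE 0.405, adjusted p = 0.0331), each in both genotypes. With no genotype term limma called 0 genes, with an unadjusted p under 0.05 for 645, and edgeR on recovered reads also called 0, with an unadjusted p under 0.05 for 1039. Fits that leave out 1 library have no genotype term either: they called none of the members without the WT ESC, the KO ESC or the WT EB library, and 13, Cubn, Afp and Esrp1 among them, without the KO EB library. At an unadjusted p under 0.05, limma had 29 members, 19 higher and 10 lower in EBs, beside 1169 genes, or 12.2%. Like Cubn and Afp, the members Enpep, Lgals2, Slc34a2, Abcc2, Fgg, Cpm and Arhgef28 of the 19 would average under 25 from ESC counts alone. The filter thus favours members that are higher in EBs, and the member counts of this test are descriptions. Lin28a missed the threshold with a difference of 2.23 (limma adjusted p = 0.0518), and the lowest adjusted p for a negative difference was that of Nynrin, -1.46 (limma adjusted p = 0.0776).

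**Figure D4:**
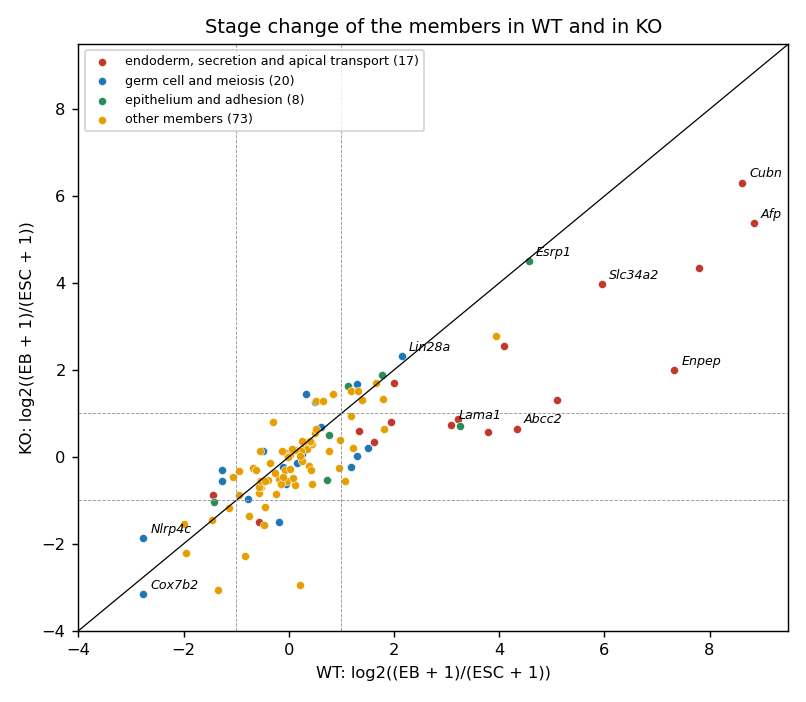
Log2((EB + 1)/(ESC + 1)) of each member in WT across and in KO upward; the line marks equal change, dashed lines mark 1 and -1, and colours give the role. Of the 17 endoderm genes, 16 lie below the line, all but Serpina3m. One of the 16 is Lama1, with 3.09 in WT and 0.74 in KO, while Esrp1 with 4.56 and 4.50 lies close to the line. Of all 118 members, 78 lie below the line.

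The members' coding sequences were low in GC. Their median was 48.3% GC against 53.2% over 9597 tested genes, and 95 of the 118 lay below that overall median. Members made up 3.43% of the decile of genes with the lowest coding GC, 33 of 961, and 0.417% of the decile with the highest, 4 of 959. The libraries differed along the same axis for all genes, since the median log2 difference between KO and WT ran from -0.30 in the lowest decile to 0.37 in the highest in ESCs and from -0.85 to 0.77 in EBs. Across those genes, which are not independent and share the same libraries, Spearman's rho between coding GC and the log2 difference was 0.295 in ESCs and 0.504 in EBs.

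After each gene's difference was centred on the median of its GC decile, an alternative added after seeing the data, 72 of the 118 members still met both limits. All 8 epithelial genes, 16 of 17 endoderm genes and 5 of 6 genes of the retroviral and zinc finger group did, against 10 of 20 germ cell genes, 1 of 5 genes for GPI anchors and glycans, 2 of 6 for RNA processing and 1 of 9 unnamed models. Germ cell genes that no longer met them include Rnf17, at -0.83 in ESCs and -0.41 in EBs, Morc1, at -1.02 and -0.88, and Sohlh2, at -1.60 and -0.80. Smc1b, at -1.86 and -2.61, and Dppa3, at -1.61 and -1.28, still did. Whether GC content as such, or biology that goes with it, sets these differences was not tested.

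**Figure D5:**
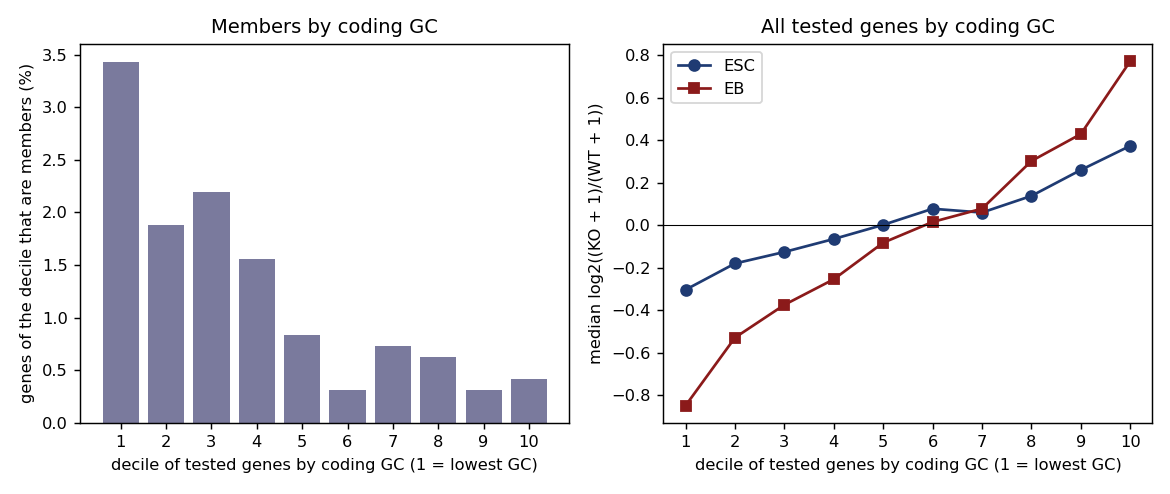
Left, the percent of genes that are members in each decile of tested genes by coding GC, from 3.43% in the lowest to 0.417% in the highest; right, the median log2((KO + 1)/(WT + 1)) of all tested genes in the same deciles for ESCs and EBs. Both lines rise from left to right, from -0.30 to 0.37 in ESCs and from -0.85 to 0.77 in EBs.

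Coding length and exon structure differed from those of all genes as well, while coding GGACT counts and copied sequence were closer to them. GGACT, a common form of the m6A consensus, occurred at a median of 0.967 per 1000 coding bases in members and 1.08 in all genes. Untranslated regions were not searched, so this count cannot show whether members differ in m6A sites. Median coding length was 1829 bases against 1380. The longest coding exon reached 1000 bases in 30 members, or 25.4%, against 13.6% of genes, and 11 members, or 9.32%, had a single coding exon, against 5.51%. Copies elsewhere covered at least 10% of the 28-base windows in 14 members, or 11.9%, against 14.7% of genes.

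Members were scattered over the genome. Within 1 Mb of each other lay 10 pairs, which together hold 19 members. Examples are Clgn and Nanos3 on chromosome 8, Ddx25 and Rpusd4 on chromosome 9, Epas1 and Pigf on chromosome 17, Herc3 and Tigd2 on chromosome 6, Mars2 and Pgap1 on chromosome 1, Nynrin and Rnf17 on chromosome 14, and Inip and Mup6 on chromosome 4. None of the tested genes lying between the partners of a pair met the limits at both stages. The 1305 other tested genes within 1 Mb of a member had median log2 differences of 0.01 in ESCs and -0.01 in EBs, so their neighbourhoods were not lower as a whole.

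The limits cut through a continuum. Just inside the fold limit were Apc2, at a log2 difference of -1.05 in ESCs and -1.002 in EBs, Nktr, at -1.003 and -1.11, Zmym1, at -1.004 and -1.11, and Rpusd4, at -1.004 and -1.35. Just outside were Rab25, a Rab GTPase of epithelial recycling endosomes, at -0.999 and -3.37, Phf11d at -0.997 and -1.16, Crb3, an apical polarity protein, at -1.58 and -0.995, and Map3k20 at -1.01 and -0.995. Around the mean of 25, Muc1, Nanos3, Ptprz1 and Fermt1 were just inside, with means between 26 and 27.4, and Lnx1, Rimbp3, Snn and Ahcy just outside, with means between 24.3 and 24.6.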

How the data were processed

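Ribosome footprints from 4 libraries, 1 each of WT and KO ESCs and EBs, were analysed from the deposited table. For every RefSeq coding sequence it lists a normalised signal that the authors derived from counted reads. The submitters' processing notes name HTSeq 0.6.0 and DESeq, the aligners Bowtie and TopHat2 2.0.10, CASAVA 1.8.2 and the build mm10. Settings, annotation and strand are left unstated there, so reads of a gene and of an overlapping antisense gene may not be told apart. Columns were matched to libraries by their titles, and 0 columns were left over. Dividing by the value of 1 read gave a whole number within 0.01 for 100% of a library's entries, so whole reads were recovered, between 4075850 and 11455539 over genes. A count test between KO and WT on these reads had stage as a covariate, so the ESC and EB libraries stood in as replicates of each genotype. It is therefore no replicate check of the KO difference at either stage. The test called 0 genes by edgeR, with an unadjusted p under 0.05 for 1402, and 250 higher and 71 lower by DESeq2. Between 48.4% and 55.7% of reads had no unique place and stayed out, as did the other 4 entries that name no gene.

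The table's 27442 coding sequences were summed by gene symbol, taken for 27079 from the RefSeq annotation of GRCm38.p6, the assembly called mm10; 112 members have 1 such sequence. Log2 folds used a pseudocount of 1, which understates the change of low genes, and genes counted at a mean of at least 25 and a 2-fold difference. Counting intervals are at 95%, and a library at 0 was set to 3 reads for a bound. Promoters, coding GC, exons and 28-base copies came from RefSeq and the GRCm38.p6 genome. The members and the gene lists were chosen with earlier results of these data known, and roles were assigned after the values were seen. Values in every library were given for members on a list, the 15 most abundant, the 15 with the lowest mean fold, those within 1 Mb of another member, those at the limits and the 6 with the largest stage change in WT in each direction. Gene models without a name were counted and not described. Cpm, Mep1b, Tfpi, F5, Pls1, Frem2, Eps8, Jrk, Fv1 and Trp53 fall outside that rule and were added after their values were seen, as were the list genes named that are not members. The stage test used limma 3.58.1 with a mean-variance trend, checked first on simulated counts, with edgeR 4.0.16 and DESeq2 1.42.0 in R 4.3.3 as alternatives. Other steps ran in Python 3.11.15 with pandas 2.3.3 and scipy 1.17.1. The alternatives were other pseudocounts, filters, scaling, sets of members, tests and left-out libraries.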

Additional observations from a re-analysis of the deposited data

How the results depend on the processing

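No alternative changed the sign of a median or of a member's fold. The rule had set every member at or below -1 on the log2 scale at both stages, which left little room for a sign change. The unchanged signs are therefore a description and give the differences no support. Counts of genes and stage-test calls have no sign to change and were compared by size only. Of 152 recomputed counts and medians, 53 moved. With 1 library a group, no alternative shows how far the values would move in other cultures. Of the 118 members, 118 met both limits at a pseudocount of 0.5, 99 at 5, 117 by the highest sequence of a gene, 88 after scaling libraries to equal totals, which raised the median of all genes by 0.126 in ESCs and 0.117 in EBs on the log2 scale, and 72 centred by decile of coding GC. The rule itself gave 65 genes at a mean of at least 100 and 256 with no filter, with 209 and 1087 genes lower in KO ESCs, 2096 lower in KO EBs with no filter, and 758 lower in KO EBs after GC centring. At a mean of at least 100, 20 members were higher and 4 lower in WT EBs, and 14 higher and 6 lower in KO EBs; without endoderm genes, 19 were higher in WT EBs; at a pseudocount of 5, 1 had the smaller EB difference. The stage test called 28 genes higher and 11 lower at a pseudocount of 5, 3 and 2 at 0.5, 47 and 15 with equal totals, 66 and 21 at a mean of at least 10, 70 and 20 at 100, 288 and 139 with no filter, 274 and 100 by DESeq2, and 0 and 0 by edgeR or with no genotype term. Members called higher numbered 5, 8 and 12 with equal totals, a mean of at least 10 and no filter, 14 by DESeq2, and 0 by edgeR or with no genotype term; members called lower numbered 1 at a mean of at least 100, 4 with no filter and 3 by DESeq2. Leaving out 1 library, with no genotype term, gave from 0 to 177 genes higher, from 0 to 122 lower and from 0 to 13 members higher; the highest numbers came without the KO EB library and the others gave 0. The remaining library of that arm is then assumed to vary like the others. The causes were not tested. No paired analysis was possible because each group holds 1 library and the labels give no replicate numbers. KO EBs, with 1.49 normalised counts per read, limit the EB folds of members with few reads.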
